A study of Mus musculus with 10 samples.

Results

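The genes described here are 10 Eph receptor and ephrin genes of the mouse: the receptors Epha4, Epha5, Epha6, Epha7, Ephb1, Ephb2 and Ephb6 and the ligands Efna3, Efnb2 and Efnb3. They were taken by name from a table of 22255 gene rows, each matched by its Ensembl identifier, and 10 of 10 were found. RNA came from hippocampal synaptoneurosomes, which are pinched-off synaptic endings that reseal during homogenization, of wild-type C57Bl/6J mice. The 5 vehicle libraries came from mice given vehicle, and the 5 AM6545 libraries from mice given AM6545 repeatedly (sub-chronically). AM6545 is a cannabinoid receptor type 1 antagonist that enters the brain poorly. Dose, age, sex and the number of animals behind a library are not stated in the sources used here, so p-values measure the spread between libraries, which may be technical.

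Eph receptors are receptor tyrosine kinases, and their ligands, the ephrins, sit on the surface of neighbouring cells. Contact sends a forward signal into the receptor-bearing cell and a reverse signal into the ephrin-bearing cell. Ephrin-A ligands are held by a lipid anchor and mostly bind EphA receptors, while ephrin-B ligands span the membrane and mostly bind EphB receptors. EphA4 binds both classes. In the hippocampus the system is known for axon guidance, for the shape of dendritic spines and for long-term potentiation.

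The receptor genes are spliced into alternative forms, and 4 of these choices recur in the results. They are shown here as transcript sequence, 5′ to 3′, from the GRCm38 genome (the assembly also called mm10) with GENCODE M21 exons. For Epha7, on the plus strand, the lower-case bases end the last coding exon that the short and the long form share. In the short form, Epha7-202, the capitals are the 35 bases at chr4:28946219-28946253 that close its coding sequence and end in the stop codon TAA. In the long form, Epha7-201, the capitals are the first 35 bases of the next coding exon, at chr4:28947528-28947562.
Epha7-202: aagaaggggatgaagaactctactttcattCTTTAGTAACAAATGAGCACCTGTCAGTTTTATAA
Epha7-201: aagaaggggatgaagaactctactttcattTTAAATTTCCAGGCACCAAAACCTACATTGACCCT
The coding sequence of Epha7-202 held 1830 bases, against 2994 bases in Epha7-201, and the short form lacked 8 coding exons of the long one. Truncated EphA7 without a kinase domain is a known product of this gene. A further form, Epha7-203, lacked 12 coding bases of Epha7-201 (chr4:28947528-28947539), which stand in capitals in the next line.
Epha7-201 choice: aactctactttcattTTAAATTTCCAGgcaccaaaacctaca
For Ephb1, on the minus strand, the capitals mark a coding exon of 123 bases (chr9:101984082-101984204) that is present in Ephb1-201 and skipped in Ephb1-202.
Ephb1-201 exon: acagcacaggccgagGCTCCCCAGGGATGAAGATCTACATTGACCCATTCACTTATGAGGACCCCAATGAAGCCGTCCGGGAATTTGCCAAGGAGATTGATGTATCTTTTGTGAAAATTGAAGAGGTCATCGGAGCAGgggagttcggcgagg
For Ephb2, also on the minus strand, the capitals mark 3 coding bases (chr4:136675531-136675533) present in Ephb2-201 and absent from Ephb2-202.
Ephb2-201 choice: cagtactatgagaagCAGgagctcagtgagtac

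The libraries held 18106112 to 25899794 estimated counts each. Of 14358 genes that passed the filter on low counts, 0 were called at an adjusted p under 0.05 in edgeR's quasi-likelihood test (0% of those tested), and 270 had an unadjusted p under 0.05. DESeq2's Wald test and limma-voom also called 0. Synaptic markers (Snap25, Syn1, Syt1, Syp, Dlg4, Homer1, Camk2a and Shank3) were detected in all libraries and summed to 6650 to 8370 CPM (counts scaled to library size, with edgeR's TMM factors between libraries). Marker lists of excitatory neurons, interneurons, astrocytes, oligodendrocytes, microglia and other cells had no gene at 0 throughout, and of 13 marker lists 0 differed between groups in summed CPM (exact permutation test, smallest unadjusted p = 0.444) or in mean log2 CPM (smallest exact permutation p = 0.421). The choroid plexus list ranged from 61.9 to 5062 CPM among vehicle libraries and from 657 to 4014 CPM among AM6545 libraries. In such bulk preparations, fewer endings of a cell type and less RNA per ending cannot be told apart.

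Levels of different genes can be compared only per length, here as TPM, the estimated counts divided by annotated transcript length and scaled to the library. In the vehicle libraries 3 EphA receptors led the family. Epha7 reached 187 ± 41.8 TPM and Epha4 149 ± 32.4 TPM (SD, n = 5), and their ranges over the libraries overlapped. Epha5 followed at 68.5 ± 12.2 TPM, and its highest vehicle library (77.8 TPM) lay below the lowest of Epha4 (98.7 TPM). Below these stood Efnb3 at 29.7 ± 13.4 TPM, Efna3 at 29.4 ± 6.96 TPM and Ephb6 at 27.1 ± 5.31 TPM, each overlapping the next in range. Epha6 (15.6 ± 3.74 TPM) and Ephb1 (15.2 ± 3.19 TPM) overlapped as well. Efnb2 was low at 4.51 ± 0.924 TPM, and Ephb2 was the lowest member at 1.82 ± 0.333 TPM. Of the 12 other Eph and ephrin genes, 10 passed the filter. Efna2 (14.5 ± 0.574 TPM) and Efna1 (12.9 ± 1.35 TPM) were the highest of them, and Epha1 and Epha2 were the 2 that did not pass.

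**Figure D1:**
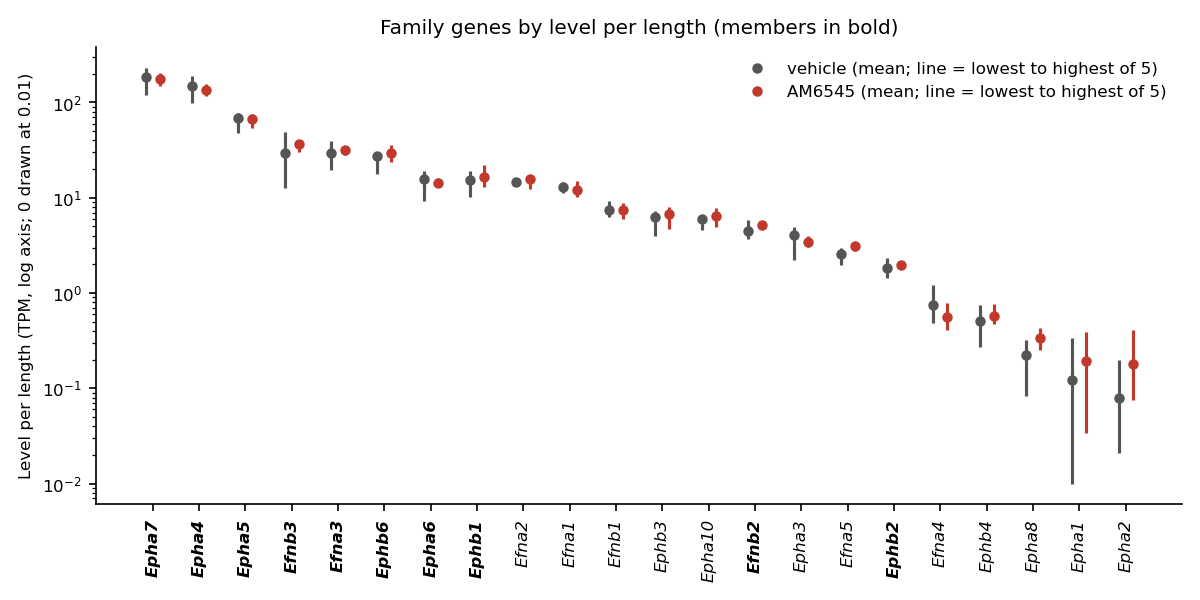
Level per length (TPM, log axis) of the 22 Eph receptor and ephrin genes in the 5 vehicle and 5 AM6545 libraries, ordered by vehicle mean. Points are means and lines run from the lowest to the highest library; Epha7 and Epha4 stand above Epha5, with ranges that overlap each other.

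Summed over the member receptors, EphA genes made up 90.5 ± 0.490% of receptor TPM in the vehicle libraries (lowest 89.7%, highest 91.0%). The AM6545 libraries gave 89.2 ± 0.613%, from 88.5 to 90.2%. Receptor TPM stood at 7.66 ± 1.69 times ephrin TPM in the vehicle libraries (5.18 to 9.18) and at 6.10 ± 0.875 times in the AM6545 libraries (4.68 to 6.97). The ranges of the groups overlapped in both measures, for the EphA share only through AM6545 replicate 2 (90.2%). AM6545 replicates 1, 3, 4 and 5 had 88.5, 89.2, 88.95 and 88.98%, below the lowest vehicle library. The difference was not tested.

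AM6545 and vehicle libraries were then compared gene by gene. Of the 10 members, 0 had an adjusted p under 0.05 (adjusted p = 0.9998 for each, edgeR), and 0 had an unadjusted p under 0.05, against 1.88% of all genes tested (1.14% higher and 0.738% lower in AM6545). In 0 of 10 members did the 2 groups stand apart without overlap, against 0.293% of all genes (0.174% higher and 0.118% lower). The 4 EphA receptors had fold changes below 0 on the log2 scale (-0.15 to -0.06). The 3 EphB receptors lay above 0 (0.09 to 0.13), as did the 3 ephrins (0.10 to 0.29). That made 6 of 10 members above 0, against 48.1% of all genes, with a median of 0.09 over the members and -0.0057 over all genes. The lowest bound of a member's 95% interval was 0.743-fold, for Epha6, and the highest was 1.73-fold, for Efnb3.

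**Figure D2:**
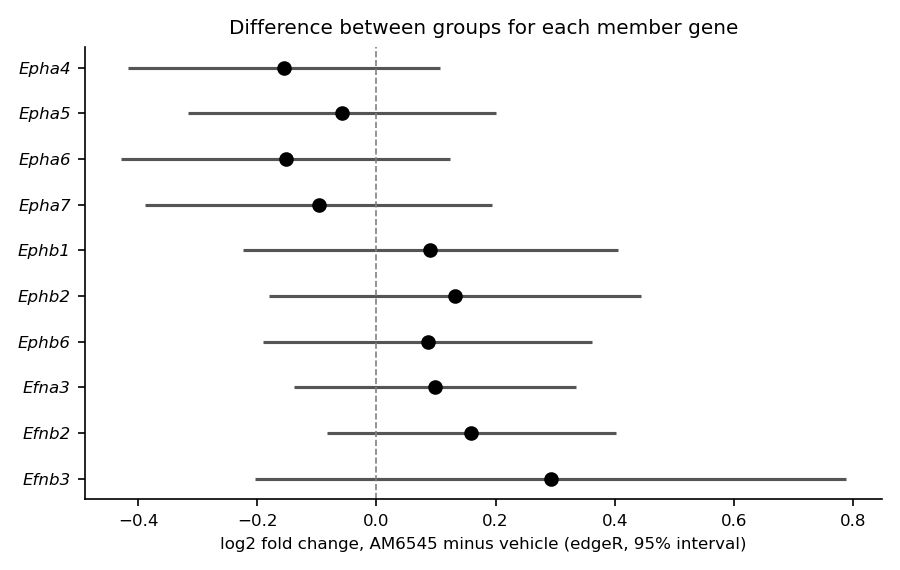
Log2 fold change of AM6545 over vehicle for each of the 10 members (point) with its 95% interval from edgeR (line); the dashed line marks no difference. Each interval crosses 0, and the widest is that of Efnb3.

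Epha4 (chr1:77367185-77515088, minus strand) encodes the receptor that binds ephrins of both classes and is known for spine retraction. Its level in vehicle replicates 1 to 5 was 309, 296, 446, 403 and 350 CPM, and in AM6545 replicates 1 to 5 it was 338, 309, 360, 345 and 268 CPM. The highest 2 values were in vehicle libraries and the lowest was AM6545 replicate 5, and the groups overlapped. Means were 361 ± 63.6 and 324 ± 36.5 CPM, a log2 fold change of -0.15 (SE 0.12, 95% interval -0.42 to 0.11, edgeR unadjusted p = 0.229). It was -0.07 without vehicle replicate 3, -0.09 without AM6545 replicate 5 and -0.22 without vehicle replicate 2.

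Epha5 (chr5:84054761-84417382, minus strand), a receptor for ephrin-A ligands known from topographic mapping of axons, had vehicle values of 144, 171, 211, 188 and 186 CPM. The AM6545 libraries held 171, 166, 203, 189 and 135 CPM. Vehicle replicate 1 and AM6545 replicate 5 were the low libraries of their groups, which overlapped. The log2 fold change was -0.06 (SE 0.12, edgeR unadjusted p = 0.640), and it changed sign to 0.02 without AM6545 replicate 5 and to 0.0059 without vehicle replicate 3.

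Epha6 (chr16:59653483-60605531, minus strand), another ephrin-A receptor, had vehicle values of 20.3, 32.3, 33.0, 32.4 and 30.5 CPM. Vehicle replicate 1 stood far below the other 4, which lay close together. The AM6545 libraries had 29.9, 24.1, 29.3, 27.2 and 23.1 CPM, and 5 of 5 lay below the vehicle median. The log2 fold change was -0.15 (SE 0.13, edgeR unadjusted p = 0.260). Without vehicle replicate 1 it was -0.26 (edgeR unadjusted p = 0.0157, adjusted p = 0.9994). An exon of Gm9017 on the opposite strand overlaps Epha6 in the annotation, and reads of these genes cannot be told apart where strand was not used in counting.

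Epha7 (chr4:28813131-28967499, plus strand), the ephrin-A receptor whose truncated form is shown above, had 221, 293, 383, 341 and 280 CPM in the vehicle libraries. In the AM6545 libraries it had 291, 263, 339, 295 and 231 CPM. As with Epha5, vehicle replicate 3 was the highest library, and vehicle replicate 1 and AM6545 replicate 5 were the lowest. The log2 fold change was -0.10 (SE 0.14, edgeR unadjusted p = 0.491), and without vehicle replicate 3 it was 0.00051.

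Ephb1 (chr9:101922128-102354693, minus strand) encodes a receptor for ephrin-B ligands with a part in axon guidance. Its values were 26.8, 31.6, 44.9, 36.6 and 36.1 CPM in the vehicle libraries and 36.8, 30.1, 49.8, 39.5 and 31.2 CPM in the AM6545 libraries. The third replicate was the highest of each group, and the groups overlapped. Its log2 fold change was 0.09 (SE 0.15, edgeR unadjusted p = 0.550), and it turned to -0.03 without AM6545 replicate 3. In the annotation Ephb1 overlaps an exon of Gm26846 on the other strand.

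Ephb2 (chr4:136647539-136835988, minus strand) encodes the receptor known for its association with NMDA receptors at excitatory synapses. It was measured with few counts, and its values were 4.56, 4.17, 5.24, 4.46 and 5.95 CPM in the vehicle libraries. The AM6545 libraries had 5.87, 6.00, 5.24, 4.58 and 5.04 CPM, each above the vehicle median, within the vehicle range in 4 of 5 libraries. AM6545 differed from vehicle by 0.13 on the log2 scale (SE 0.15, edgeR unadjusted p = 0.386). It was 0.08 without vehicle replicate 2 and 0.21 without vehicle replicate 5, and limma-voom with quality weights put it at -0.01.

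Ephb6 (chr6:41605482-41620509, plus strand) encodes a receptor whose kinase domain is inactive. The vehicle libraries had 39.1, 52.7, 59.95, 57.3 and 55.0 CPM, and the AM6545 libraries had 66.7, 45.8, 58.4, 62.0 and 47.3 CPM. The lowest value was vehicle replicate 1, and the AM6545 values fell on both sides of the vehicle median. A log2 fold change of 0.09 (SE 0.13, edgeR unadjusted p = 0.518) became -0.0039 without vehicle replicate 1.

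Among the ligands, Efna3 (chr3:89313899-89322965, minus strand) encodes ephrin-A3, which astrocytes present to neuronal EphA4. Its values were 25.8, 40.1, 34.95, 33.9 and 32.8 CPM in the vehicle libraries, the first 2 of which were the lowest and the highest of the 10. In the AM6545 libraries it had 34.4, 33.2, 34.5, 39.5 and 37.7 CPM. On the log2 scale the difference was 0.10 (SE 0.11, edgeR unadjusted p = 0.391), and it was 0.02 without vehicle replicate 1, 0.06 without AM6545 replicate 4 and 0.17 without vehicle replicate 2. Efna3 overlaps an exon of Gm15998 on the opposite strand in the annotation.

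Efnb2 (chr8:8617434-8661242, minus strand) encodes ephrin-B2, a transmembrane ligand of EphB receptors and of EphA4. The vehicle libraries had 10.4, 13.0, 10.1, 10.04 and 12.4 CPM, and the AM6545 libraries had 11.3, 13.8, 12.1, 12.7 and 12.5 CPM. All 5 AM6545 values lay above the vehicle median of 10.4 CPM, but vehicle replicate 2 exceeded 4 of them. The log2 fold change was 0.16 (SE 0.11, edgeR unadjusted p = 0.184), the smallest p among the members.

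Efnb3 (chr11:69554092-69560205, minus strand) encodes ephrin-B3, another transmembrane ligand, which EphA4 and EphB receptors bind. It had the widest spread of the members, relative to the mean, among the vehicle libraries, at 24.0, 72.8, 48.6, 39.9 and 54.7 CPM. The AM6545 libraries had 51.5, 50.4, 67.0, 62.3 and 62.7 CPM, each above the vehicle median and each below vehicle replicate 2. Means were 48.0 ± 18.0 and 58.8 ± 7.41 CPM, a log2 fold change of 0.29 (SE 0.23, 95% interval -0.20 to 0.79, edgeR unadjusted p = 0.223). The coefficient of variation was 37.6% in the vehicle libraries and 12.6% in the AM6545 libraries. The value depended on 2 libraries: without vehicle replicate 1 it was 0.12 (edgeR unadjusted p = 0.418), and without vehicle replicate 2 it was 0.49 (edgeR unadjusted p = 0.0235, adjusted p = 0.9151).

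**Figure D3:**
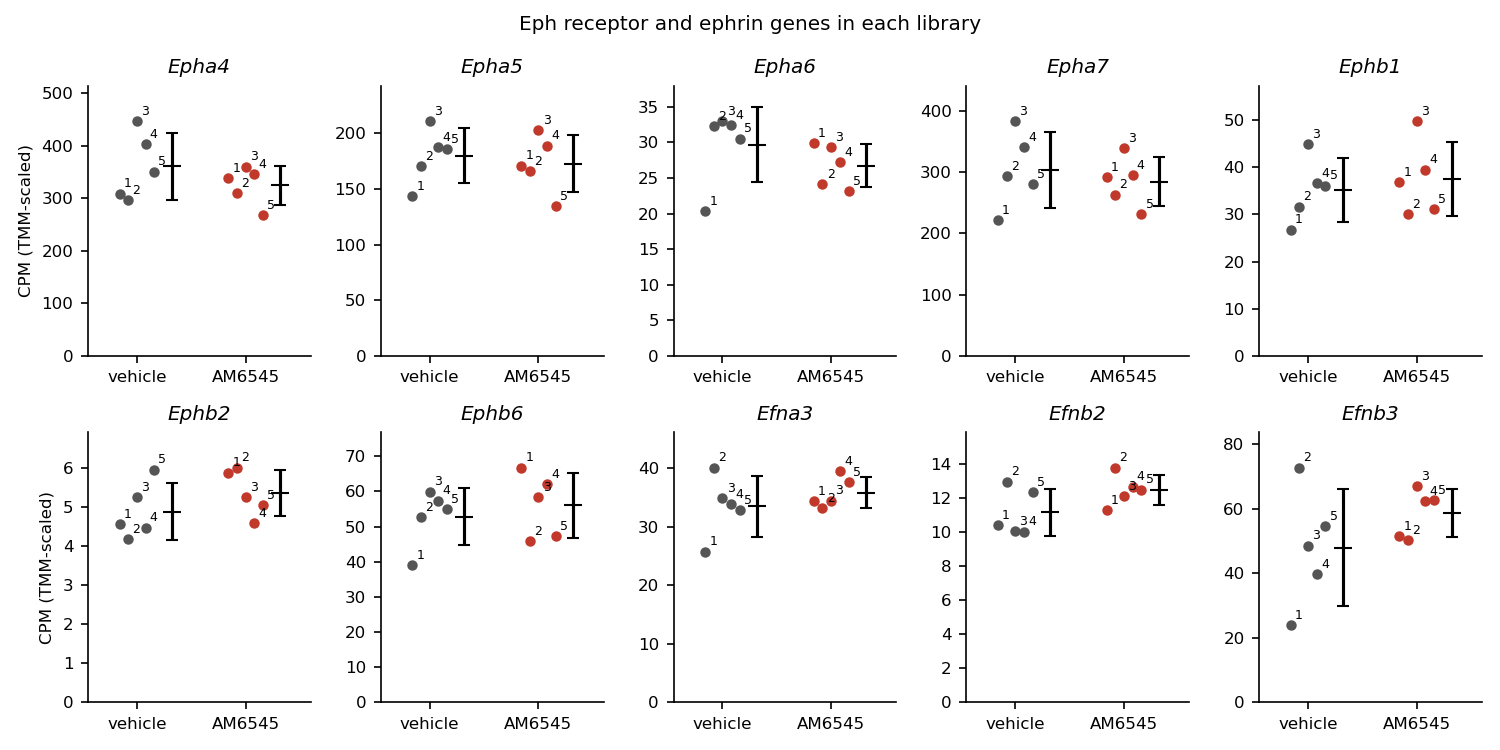
CPM of each of the 10 members in the 5 vehicle and 5 AM6545 libraries, numbered by replicate, with the mean and SD of each group beside the points (linear axes from 0). The groups overlap in each panel, and vehicle replicate 1 is the lowest library for Epha6, Epha7, Ephb1, Ephb6, Efna3 and Efnb3.

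Some of the spread within groups was shared between members. In vehicle replicate 1, 10 of 10 members lay below their own mean over the 10 libraries, where 48.8% of all genes tested did. It was the lowest library for 6 members, where 23.5% of all genes had their lowest value in it, and the median deviation of the members was -0.40 on the log2 scale, against 0.01 for all genes. Excitatory neuron markers summed to 2564 CPM in this library and to 2797 CPM or more in the other 9. Its synaptic markers summed to 6884 CPM, with AM6545 replicate 3 lower at 6650 CPM and the other 8 libraries at 7178 CPM or more. Its astrocyte markers (2084 CPM) exceeded those of AM6545 replicate 5 (2005 CPM) alone. Other lists were high in it. Its choroid plexus markers were the highest of the 10 libraries (5062 CPM). Only AM6545 replicate 2 (898 CPM) exceeded its interneuron markers (865.5 CPM), and only AM6545 replicate 3 (1334 CPM) its red blood cell markers (896 CPM). The part of these differences in the members' values was not tested. The members also differed in base composition. GC content of the longest transcript was 40.1 to 48.0% for the 4 EphA receptors, which had fold changes below 0, and 50.4 to 59.4% for the EphB receptors and ephrins, which had fold changes above 0. The correlation of a library's deviations with GC content across genes ranged from -0.13 to 0.16 over vehicle and from -0.18 to 0.12 over AM6545 libraries, and was highest in vehicle replicate 1. Its part in the members' differences was not tested. In AM6545 replicate 5 the EphA receptors averaged a deviation of -0.33, while the ephrins averaged 0.17.

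**Figure D4:**
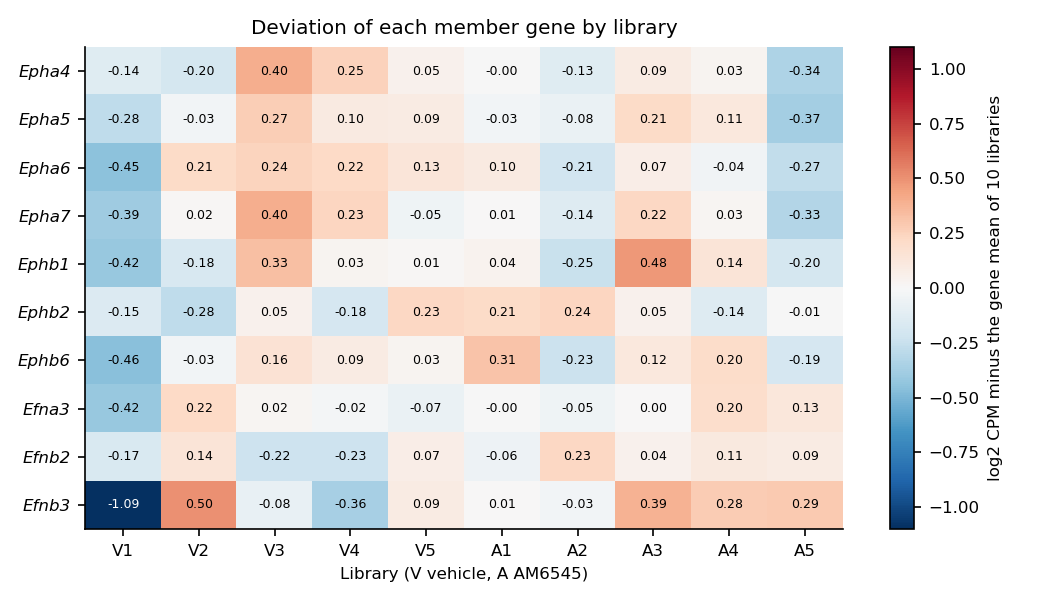
Deviation of each member (rows) from its mean over 10 libraries in each library (columns, V vehicle and A AM6545), in log2 CPM. The first vehicle column is below 0 for the 10 members, down to -1.09 for Efnb3.

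Across the 10 libraries the EphA receptors varied together, and Ephb1 and Ephb6 varied with them. As a description over libraries that share their normalization, Pearson's r of log2 CPM was 0.93 for Epha5 with Epha7 and 0.65 for Epha4 with Epha6, and the other 4 EphA pairs fell between these. With the EphA receptors, r was 0.65 to 0.85 for Ephb1 and 0.58 to 0.80 for Ephb6. For Ephb2 it was -0.02 to 0.11. Efna3 and Efnb3 had an r of 0.90. The usual r of gene pairs outside the family was not computed, so these values have no background to be set against. Chosen for testing were 8 receptor and ligand pairs that bind each other. They were Epha4 with Efna3, Efnb2 and Efnb3, Epha5 with Efna3, and Ephb1 and Ephb2 each with Efnb2 and Efnb3. Pairs with Epha6, Epha7 and Ephb6 were not tested. Of the 8 pairs, 0 correlated at an adjusted p under 0.05 (permutation test). The strongest was Epha4 with Efnb2, where r was -0.64 (permutation p = 0.0478, adjusted p = 0.382) and Spearman's rho was -0.60 (permutation p = 0.0748, adjusted p = 0.598). Without the 2 libraries farthest from the median of Epha4, r was -0.51, and within groups it was -0.67 over vehicle and -0.34 over AM6545 libraries. The gene whose log2 CPM followed each member most closely, among 9603 genes, was Slc4a7 for Epha4 (r = 0.96), Atp8a1 for Epha5 (0.98), Creg2 for Epha6 (0.95) and Tmem68 for Epha7 (0.98). For the EphB receptors it was Ndst1 with Ephb1 (r = 0.98), Mis12 with Ephb2 (0.87) and Sirpa with Ephb6 (0.98). For the ligands it was Ergic1 with Efna3 (r = 0.98), Irf2bpl with Efnb2 (0.92) and Mmgt1 with Efnb3 (0.99). Each of these genes was picked for its r from 9603 over 10 libraries. The r that unrelated genes reach by such a choice was not computed.

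The transcript table lists 53 transcripts of the members, of which 43 had counts and 29 passed the filter. The truncated Epha7-202, whose end is printed above, was the leading form of its gene. It held 70.0 ± 2.02% of the estimated Epha7 counts in the vehicle libraries and 70.2 ± 1.64% in the AM6545 libraries, with a range over the 10 libraries of 67.5 to 72.3%. Epha7-201 held 18.0% and Epha7-203 8.59% on average. These are shares of counts, which long transcripts collect more of. Per length the mean shares were 76.5% for Epha7-202, 8.42% for Epha7-201 and 4.08% for Epha7-203. The ratio of the truncated count to the summed count of Epha7-201 and Epha7-203 was 2.40, 2.67, 2.77, 2.94 and 2.37 in the vehicle libraries. In the AM6545 libraries it was 2.62, 2.29, 2.69, 2.89 and 2.80. Values of both groups ran side by side (exact permutation p = 0.881, two-sided), and per length the ratio averaged 6.13 ± 0.572 and 6.19 ± 0.532. Compared with each other, Epha7-202 has 829 exon bases and Epha7-201 has 4695 that the other lacks. Epha7-203 has 0 exon bases that Epha7-201 lacks and differs from it in splice junctions. It lacks 131 exon bases of Epha7-201, the 12 coding bases among them.

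Epha4 counts were split less steadily. Epha4-201, the full-length form, held 76.5% on average and from 64.6 to 93.7% over the libraries. Epha4-207, annotated as a target of nonsense-mediated decay, held 21.1%, with 4.70% in vehicle replicate 1 and 32.3% at the highest. It has 0 exon bases outside Epha4-201. Per length Epha4-201 averaged 56.96%, Epha4-207 31.74% and Epha4-203 10.52%, the last with 1.38% of counts. In vehicle replicate 2 alone, Epha4-207 (45.93%) exceeded Epha4-201 (45.34%) per length. Epha4-205 was given 498.9 counts (9.21%) in AM6545 replicate 5 and 0 in the other 9 libraries.

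Epha5 had no single main form. Epha5-204 held 41.0% of its counts, Epha5-202 25.8%, Epha5-201 15.6% and Epha5-203 12.6%. Per length these forms averaged 40.3, 27.0, 10.8 and 12.3%, in the same order of names. Ephb1-201, which includes the 123-base exon, held 75.0% of Ephb1 counts and the form that skips it, Ephb1-202, 17.5%. That form was at 0 counts in vehicle replicate 2 and AM6545 replicate 2 and reached 33.3% elsewhere. It has 0 exon bases outside Ephb1-201 and lacks 566 exon bases of Ephb1-201, the 123-base exon among them. Ephb2-201, with the 3-base CAG, held 78.6% and Ephb2-202 17.7%, the latter on 3.0 to 37.5 counts. Per length Ephb2-201 averaged 85.4% and Ephb2-202 8.59%. Besides the 3-base choice, Ephb2-202 has 6101 exon bases that Ephb2-201 lacks, so these shares do not measure that choice alone. The leading transcript of Epha6, Ephb6, Efna3 and Efnb2 held over 95% of the gene's counts on average. Per length Epha6-201 averaged 89.6% and Efna3-201 91.55%. Efnb3-201 is the only transcript listed for Efnb3, so its share is fixed.

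**Figure D5:**
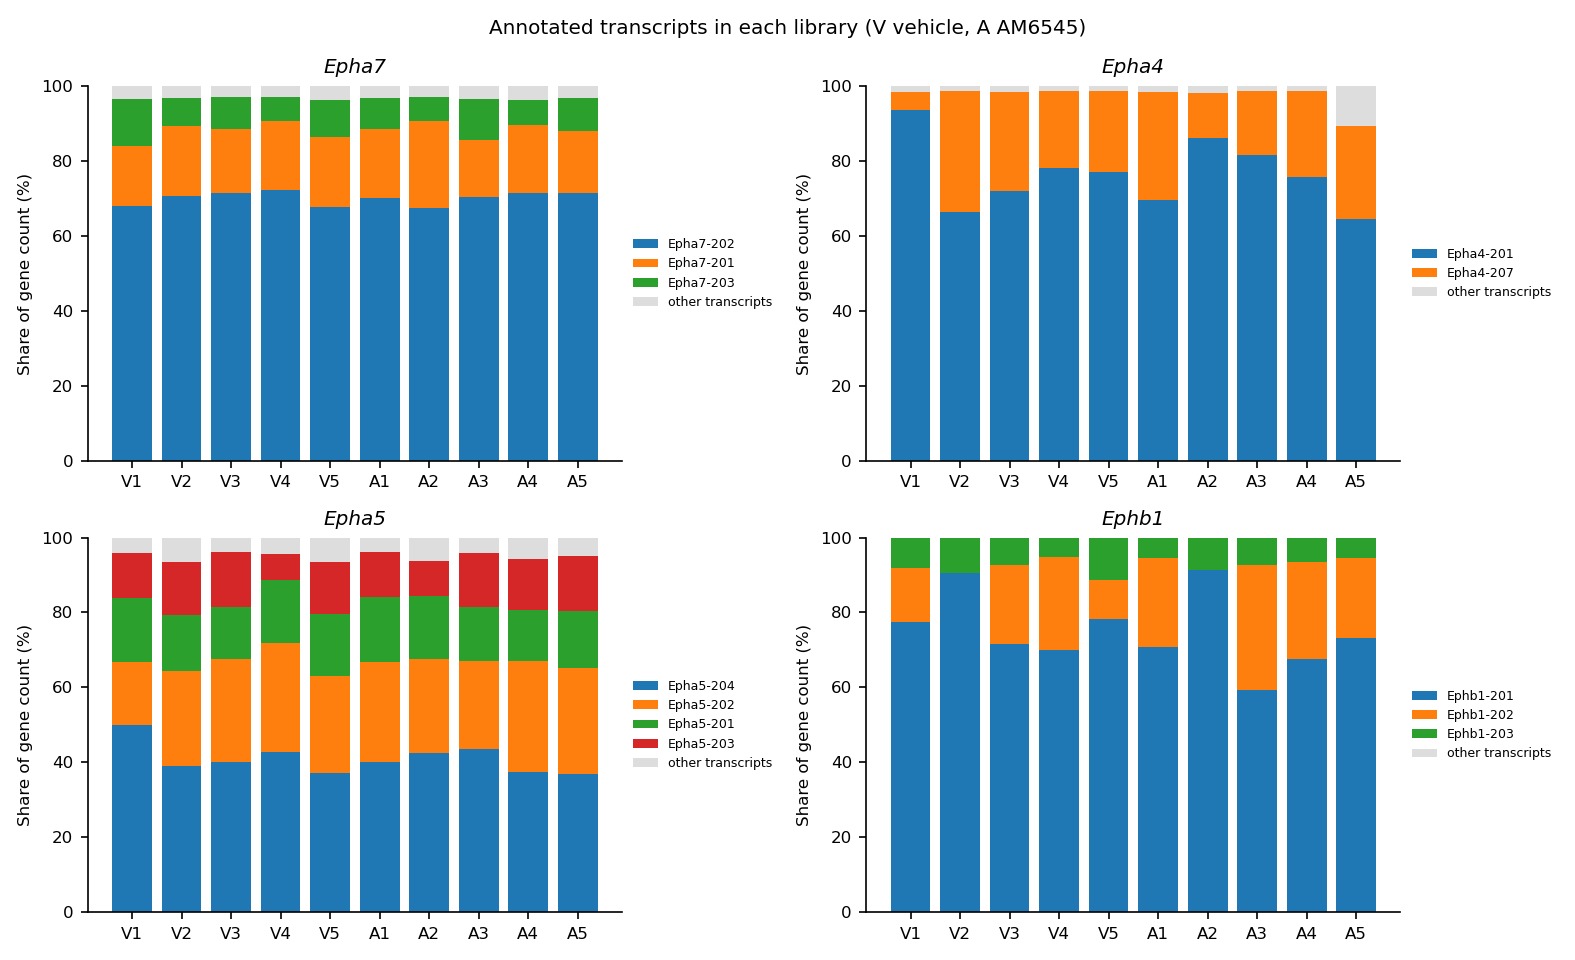
Share of the gene's estimated counts (%) held by each annotated transcript of Epha7, Epha4, Epha5 and Ephb1 in the 10 libraries (V vehicle, A AM6545). Epha7-202 stays between 67.5 and 72.3%, while the forms of Epha4 and Ephb1 shift from library to library.

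Of the 29 member transcripts tested, 0 had an adjusted p under 0.05 and 0 an unadjusted p under 0.05 in edgeR. Over all 31848 transcripts, 0.00314% were called, and 1.97% had an unadjusted p under 0.05 (1.1% higher and 0.873% lower). In 0 of the 29 did the groups stand apart without overlap, and such transcripts made up 0.575% of all tested (0.295% higher, 0.279% lower), and 49.5% had a fold change above 0. The member transcript of smallest p was Epha5-210, whose vehicle libraries averaged 1.06 ± 0.464 CPM and whose AM6545 libraries averaged 1.70 ± 0.460 CPM (log2 fold change 0.67, SE 0.36, edgeR unadjusted p = 0.0880). In 9 exact permutation tests of the leading transcript's share the smallest p was 0.167, for Ephb6, and the smallest adjusted p was 0.821. Ephb6-201 held 100% in each vehicle library, and Efnb2-201 held 100% in most libraries of both groups. With such ties the tests of these genes could not reach a small p. For Epha7-202 the share differed by 0.179 percentage points (exact permutation p = 0.913).

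The 10 other family genes that passed the filter gave 0 calls, 7 fold changes above 0 and 3 below, and a median of 0.07. Those above 0 were Epha8 (0.58), Epha10 (0.07), Ephb3 (0.11), Ephb4 (0.16), Efna2 (0.07), Efna5 (0.23) and Efnb1 (0.02), and those below 0 were Epha3 (-0.24), Efna1 (-0.14) and Efna4 (-0.44), on the log2 scale. Outside the members, EphA receptors and ephrins lay on both sides of 0. The smallest edgeR unadjusted p was 0.108, for Epha8, which had 5 to 24 counts per library. Of 49 genes that act with or downstream of Eph receptors and ephrins, 49 were tested and 0 were called in either direction (edgeR). Unadjusted p under 0.05 was reached by 2 of them in the higher direction and 0 in the lower, against 1.14% and 0.738% of all genes. Fold changes were above 0 in 33 and below 0 in 16, with a median of 0.03.

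Exchange factors and activating proteins, which carry Eph signals to actin, held both of those genes. Vav2, an exchange factor recruited to active Eph receptors, had 1.12, 2.32, 2.39, 1.72 and 2.21 CPM in the vehicle libraries. In the AM6545 libraries it had 2.84, 2.74, 3.42, 3.04 and 3.17 CPM, and the groups did not overlap. This held for 1 of the 49 genes, against 0.293% of all genes tested (0.174% higher in AM6545). Vav2 was named for having the smallest p of the 49. Its counts were few, 23 to 73 per library, and the log2 fold change was 0.64 (SE 0.21, edgeR unadjusted p = 0.00790, adjusted p = 0.9998). Ngef, or ephexin-1, the exchange factor tied to EphA4, had 70.6, 94.1, 73.7, 98.3 and 86.0 CPM against 105, 111, 78.9, 114 and 99.6 CPM. Its log2 fold change was 0.26 (SE 0.12, edgeR unadjusted p = 0.0421), with AM6545 replicate 3 the 1 AM6545 library below the vehicle median. The fold changes of Tiam1, Kalrn and Itsn1, exchange factors linked to EphB receptors, were 0.02, 0.08 and 0.07. Those of Chn1, a Rac-inactivating protein downstream of EphA4, and Sipa1l1, a Rap-inactivating protein of spines, were -0.08 and -0.04.

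Among the other classes, 0 of 13 adaptors and PDZ proteins, 0 of 13 kinases and phosphatases and 0 of 7 genes of ephrin and Eph cleavage had an unadjusted p under 0.05 (edgeR). Grip1, a PDZ scaffold of ephrin-B ligands, had a log2 fold change of 0.17 (SE 0.12, edgeR unadjusted p = 0.173). Fyn, a Src-family kinase that acts below Eph receptors, had 0.05. Acp1, the low-molecular-weight phosphatase that acts on Eph receptors, averaged 132 ± 15.4 CPM in the vehicle group and 118 ± 8.42 CPM in the AM6545 group (log2 fold change -0.16, edgeR unadjusted p = 0.127), the smallest p among pathway genes below 0. Adam10, the protease that sheds ephrins, averaged 56.8 CPM in both groups (SD 9.15 and 3.43).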

How the data were processed

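Total RNA of hippocampal synaptoneurosomes was made into SMARTer ultra-low-input libraries, per the labels' protocols. The authors deposited estimated counts per gene and per transcript. Salmon 1.5.2 and mm10 are named in the submitters' processing notes; annotation release, strand setting and import tool are not given in the sources used here. All 10 libraries and both tables were used. Estimated counts were rounded and fitted over the whole table with edgeR 4.0.16 (R 4.3.3; TMM, filterByExpr with a minimum count of 10 and total of 15, robust quasi-likelihood, group only, Benjamini-Hochberg adjustment, two-sided, threshold 0.05). Transcript names, lengths, exons, overlaps and sequences came from GENCODE M21, whose identifier versions mostly differ from those deposited. TPM was computed from its lengths. Shares of transcripts were compared by exact permutation over 252 arrangements, correlations with 100000 permutations (scipy 1.17.1). Log2 CPM used a prior count of 2.

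The labels give no batch. A class of the pathway list is not reported here on its own. The members and gene lists were chosen with earlier results of these data known. Named were the members, other family genes that passed the filter, all transcripts with a mean share of 10% or more, the member transcript of smallest p, 9 pathway genes always, the pathway gene of smallest p in each direction, and for each member the most similar gene with a mean of at least 10 CPM. Epha7-203, Epha4-205 and other transcripts under 10% were chosen after their values were seen. Alternatives were DESeq2 1.42.0 (size factors, Wald test), library totals, limma-voom (limma 3.58.1), other filters, no robust estimation, a replicate block, removal of mitochondrially encoded genes, and leaving out each library. Leaving out vehicle replicates 1 and 2 together was added after seeing the data. Tested on simulated counts for genes, the fit recovered 2 of 50 genes changed 1.25-fold, 27 of 50 at 1.5-fold, 41 of 50 at 2-fold and 49 of 50 at 3-fold, and 12 unchanged genes were called. For transcripts it recovered 0, 1, 5 and 22 of 50 at these folds. The simulation drew each gene or transcript independently and held changed ones at each fold. The gene data gave 0 calls and 1.88% of genes at an unadjusted p under 0.05 (edgeR). Recovery in the data may therefore be lower.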

Additional observations from a re-analysis of the deposited data

Results flagged for a closer look

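Single libraries that stood apart from the others of their group were looked for in the CPM of the 10 members, of 21 other named genes and in the shares of 14 transcripts, 90 groups in all. A gap to the nearest library above 0.71 of the group's range was found in 6 groups. Chance would give about 4.5 if the groups were independent and normally distributed. They come from the same libraries and genes vary together, so that number is a rough guide. Vehicle replicate 1 was the library in 4 of them. It had 20.3 CPM of Epha6, against 30.5 to 33.0 CPM in the other 4 vehicle libraries (gap 0.805 of the range), and 6.51 CPM of Epha3, against 11.8 to 13.3 CPM. It also had 9.76 CPM of Ephb3, against 13.7 to 15.2 CPM, and 191.7 CPM of Fyn, against 239 to 254 CPM. Itsn1 was high in AM6545 replicate 2, at 71.3 CPM against 58.9 to 62.1 CPM. Grip1 was low in AM6545 replicate 3, at 9.59 CPM against 12.8 to 13.7 CPM.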

How the results depend on the processing

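The counts of members, member transcripts, leading transcript shares, receptor-ligand pairs and other family and pathway genes with an adjusted p under 0.05 were 0 under each alternative run. The labels' replicate numbers, used as a replicate block, gave 0 members, 0 member transcripts and 0 pathway genes. The block gave 0.01 (0.01434) for Epha5-203, which had -0.0068 without it. For Efnb3 it gave 0.37 (edgeR unadjusted p = 0.0727, adjusted p = 0.9997), against 0.29 without it, the largest shift among the members. Libraries of the same number correlated at -0.14, -0.19, 0.23, 0.39 and 0.06 in their deviations across genes. Of the vehicle libraries, 3 of 5 correlated best with their own number, and a shared batch was not tested. The numbers name no shared animal or day, so no pairing was assumed. Over all transcripts each fit tested, where edgeR as described called 1, the DESeq2 Wald test called 11, the fit with no filter 2, and that with 10 counts in every library 0.

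Epha4, Epha6, Efna3, Efnb2 and Efnb3 (5 members) had the same sign in the 20 alternatives. Fits across all genes gave some members an unadjusted p under 0.05, and 0 an adjusted one. Epha6 had a limma-voom unadjusted p = 0.0436 (-0.21). Leaving out both vehicle replicates 1 and 2 gave an edgeR unadjusted p = 0.0183 for Epha4 (-0.30), unadjusted p = 0.0277 for Epha6 (-0.26) and unadjusted p = 0.0278 for Efnb3 (0.30).

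Signs of small differences turned as follows, in log2 fold change, and the cause was not tested. Adam10 was -0.0041 (-0.004109 by the DESeq2 Wald test, -0.004107 with DESeq2 size factors), -2.919e-05 with 10 counts in every library, -0.0831 with limma-voom and -0.0913 without vehicle replicates 1 and 2. That last setting gave -0.0630 for Ephb1 and -0.0336 for Ephb6. Ephb2 was -0.0150 with limma-voom. Epha5-202 was -0.0007061 by the DESeq2 Wald test and -0.0006977 with its size factors. With library totals, r of Epha4 with Efna3 was 0.0002985. Leaving out each library in turn gave -0.0879 to 0.0661 for Adam10, -0.129 to 0.0189 for Epha5, -0.192 to 0.00051 for Epha7, -0.0308 to 0.193 for Ephb1, -0.0039 to 0.151 for Ephb6, -0.0143 to 0.0810 for Fyn and -0.0583 to 0.0678 for Tiam1. For transcripts it gave -0.445 to 0.0256 (Epha4-207), -0.153 to 0.110 (Epha5-202, -0.1525 at the lowest), -0.152 to 0.134 (Epha5-203), -0.196 to 0.0157 (Epha7-201), -0.203 to 0.0051 (Epha7-202), -0.114 to 0.0388 (Ephb1-201), -0.0306 to 0.0962 (Ephb2-201) and -0.0089 to 0.148 (Ephb6-201). Differences in share ran from -4.70 to 2.14 percentage points for Epha4-201, -2.92 to 0.302 for Epha5-204, -0.381 to 0.850 for Epha7-202 and -0.233 to 0.0737 for Efnb2-201.

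Among the members Ephb2 had the fewest counts (88 to 151 per library). Transcript shares carry an assignment error that the deposited tables do not give, and Epha4-207, Epha7-203 and Ephb1-202 have no exon bases of their own against the full-length form. Reads were counted after amplification with no molecular identifiers, so precision from counts covers counting error only.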
